A study of Mus musculus with 17 samples.

Results

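The comparison set TAµ cells of transplanted mice (3 libraries) against TAµ cells of pups at postnatal day 10, written P10 TAµ (8 libraries). These 11 libraries were chosen by their sample titles out of 17 in the series, and every one of the 13769 genes in the authors' deposited table was compared. The cells were myeloid populations sorted from the brain of C57bl6/j mice, and RNA was sequenced after whole-transcriptome amplification. Transplanted mice were BU-treated and were taken 3 months after transplantation of GFP Lin- cells. P10 mice are labelled with their age alone, and no treatment is given for them. The labels leave the names TAµ, µ and BU unexplained, do not give the age of the transplanted mice, and give neither the number of animals behind a library nor the GFP status of the sorted cells. Age, treatment and any day of preparation therefore differ together between both groups and cannot be told apart. Nothing says that the libraries of a group came from separate mice, so the p-values may measure technical spread only. The other groups, used here for reference levels, were transplanted µ (3 libraries, from transplanted mice as above) and adult control µ (3 libraries, from mice 5 months old).

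Microglia are the resident macrophages of the brain. They descend from yolk sac progenitors, renew themselves in place, and depend on signalling through the receptor Csf1r and on TGF-beta. In the first weeks after birth they divide, are amoeboid in shape and clear dying cells and surplus myelin and synapses. Macrophages that enter the brain from bone marrow after the resident cells have been depleted take on part of the microglial programme, and in mice they are known to keep a profile of their own that includes genes of antigen presentation and low Sall1.

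The authors' deposited table gives, for each gene, a log2 average over the libraries and log2 fold changes between groups with limma p-values adjusted by the Benjamini-Hochberg method. It holds no value for a single library. Fold changes are written below as transplanted TAµ minus P10 TAµ, and the number after ± is their standard error, worked back from the limma p. "Higher" and "lower" are said of genes past an adjusted p of 0.05. The level of a gene in a group, on a log2 scale, was derived from its average and its fold changes. Levels are not divided by gene length and are compared only within a gene. A summed level of a list, where given, adds the derived levels of its members before the log2, so its strongest members set most of it. Where a level is followed by ±, that number is the standard error of the group's mean, from 3 libraries of transplanted TAµ and 8 of P10 TAµ. The median standard error of a level was 0.51 in transplanted TAµ and 0.21 in P10 TAµ, so the group of 3 set most of the error. Read totals per library were not analysed here.

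By the calls of the authors' deposited table, 1441 of 13769 genes (10.5%) were higher and 2100 (15.3%) were lower in transplanted TAµ, together 25.7%. The median log2 fold change over all genes in the authors' deposited table was -0.33, but this shift varied with expression. The median was -1.33 for the 3442 genes with the lowest average and -0.13 for the 3443 with the highest. For the genes in between it was -0.40 and, at higher average, -0.24. Each list below is to be read against a shift that was smaller for strongly expressed genes. Centring, here and below, subtracts the -0.33 of all genes from every gene. Calls and list medians that change on centring depend on that choice. With fold changes centred on -0.33, 2181 genes were higher and 1434 lower, so the share of calls that were higher went from 40.7% to 60.3%. The lower calls were most frequent among weakly expressed genes: 23.2% of the 3442 genes with the lowest average were lower and 8.25% higher, against 16.2% lower and 13% higher of the 3443 genes with the highest average, in the authors' deposited table. In transplanted TAµ 618 genes lay together at derived levels from -4.74 to -4.45, with no gene in the next 0.48 of the log2 scale. They are named genes at the floor below, and a gene with no reads in any of the 3 libraries would stand there. Of them 510 were lower, which is 24.3% of all lower calls, 108 were not called and 0 were higher according to the authors' deposited table, and their fold changes are given as descriptions with no bound. The pile-up also settles the sign of the fold changes: with every sign turned round, no interval of 0.2 below a level of -4 holds more than 21 genes, against 425 with the sign as read. In P10 TAµ 22 genes had levels below -4.

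**Figure D1:**
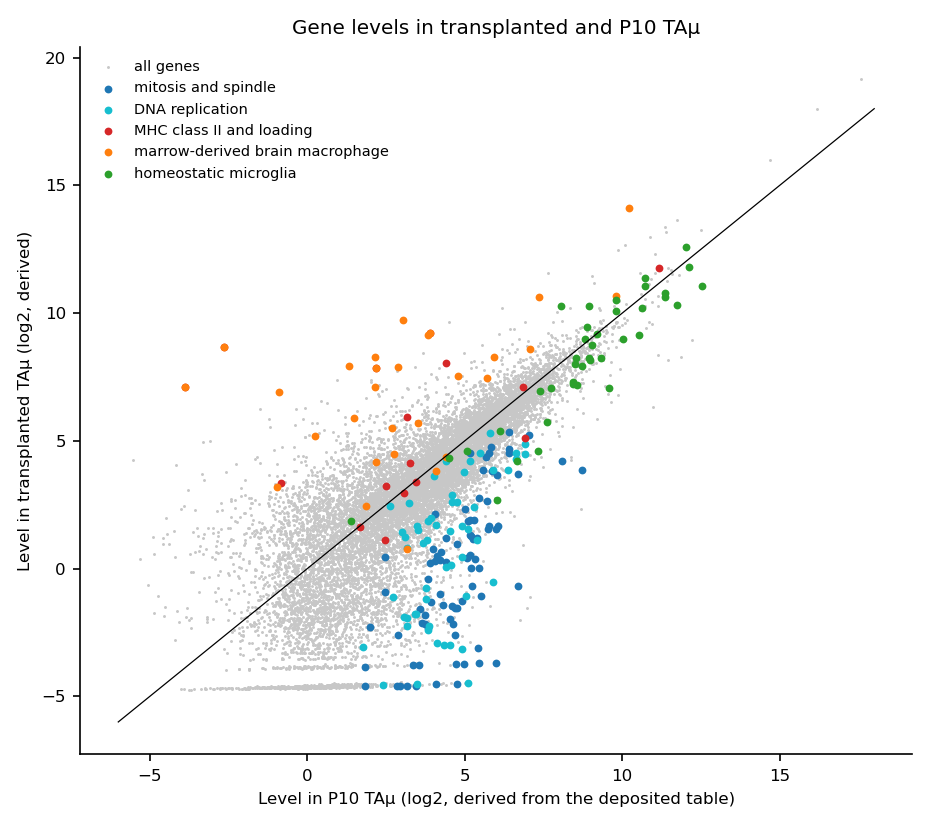
Derived log2 level of each of 13769 genes in P10 TAµ (horizontal axis) and transplanted TAµ (vertical axis), with members of 5 gene lists coloured and the line of equal levels in black. Most marrow-derived macrophage genes lie above the line, most cell division genes below it, and 618 genes form the horizontal row at the floor of transplanted TAµ.

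**Figure D2:**
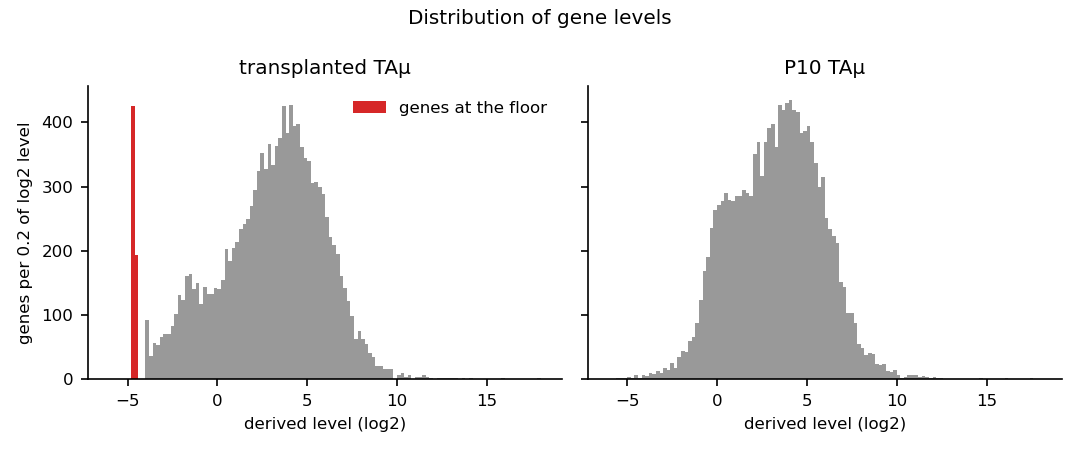
Number of genes per 0.2 of derived log2 level in transplanted TAµ (left) and P10 TAµ (right). The bars in red are the 618 genes at the floor of transplanted TAµ, which are separated from the other genes by a gap of 0.48.

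The gene lists used below group genes by textbook function and number 49, with 1176 of 1356 genes measured. As the names TAµ and µ are unexplained, defining microglia markers were looked at first. Those given here were well above the floor in both groups: P2ry12 (10.31 and 11.75 in transplanted and P10 TAµ), Tmem119 (9.18 and 9.21), Cx3cr1 (10.79 and 11.35), Csf1r (11.79 and 12.12) and Sall1 (5.87 and 9.21) in derived levels. Sall1 alone among them differed by several log2 units.

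Of 39 homeostatic microglia genes, which mark the surveying state of the adult cell, 19 were lower and 4 higher in transplanted TAµ in the authors' deposited table, with a median fold change of -0.56. P2ry12, the receptor through which microglia sense nucleotides from damaged cells, had a level of 10.31 ± 0.25 against 11.75 ± 0.11 and was lower by 1.44 ± 0.27 (limma adjusted p = 0.000896) in the authors' deposited table. Its level in transplanted µ was 12.03 and in adult control µ 10.97, so transplanted TAµ were the lowest of the 4 groups. The hexose transporter gene Slc2a5 fell by 2.74 ± 0.41 to a level of 4.60 in the authors' deposited table. Gas6, a ligand of the receptors Axl and Mertk that bridges phagocytes to dying cells, fell by 1.21 ± 0.17 in the authors' deposited table. The 4 genes that were higher were Pmepa1, a feedback inhibitor of TGF-beta signalling, at 2.22 ± 0.21, the complement genes C1qa at 1.36 ± 0.31 and C1qb at 0.66 ± 0.23, and the receptor gene Tgfbr1 at 0.70 ± 0.18 in the authors' deposited table. The marker gene Tmem119 differed by -0.02 ± 0.27 (limma adjusted p = 0.959), Trem2 by 0.16 ± 0.43 and Csf1r by -0.34 ± 0.16 in the authors' deposited table, and none of these passed the test. With fold changes centred on the median of all genes, 12 of the list were lower and 5 higher.

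Of 26 transcription factors of microglial identity 4 were lower and 2 higher according to the authors' deposited table, with a median of -0.16 that became 0.17 on centring, where 2 were lower and 5 higher. Sall1, a zinc finger repressor that holds microglia in their resting state, had a level of 5.87 ± 0.31 in transplanted TAµ against 9.21 in P10 TAµ, 9.18 in transplanted µ and 9.44 in adult control µ. Sall1 fell by 3.34 ± 0.32 (limma adjusted p = 1.46e-06) in the authors' deposited table, and its family member Sall3 by 3.48 ± 0.60. Transplanted TAµ stood apart for Sall1, and the levels of the other groups were close to each other. Mef2a, a MADS box factor, gained 0.78 ± 0.20 log2 units in the authors' deposited table, and Bhlhe41 fell by 0.76 ± 0.24, a call that was lost on centring at -0.43 (adjusted p = 0.189). The myeloid master regulator gene Sfpi1, which encodes PU.1, differed by -0.00 ± 0.24, Irf8 by -0.16 ± 0.20 and Mef2c by -0.25 ± 0.20 in the authors' deposited table, and none passed the test.

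The list of genes typical of brain macrophages derived from bone marrow moved in 1 direction. Of 29 measured genes 25 were higher and 0 lower according to the authors' deposited table, with a median of 3.89. Cybb, the catalytic subunit of the phagocyte NADPH oxidase, had a level of 9.73 ± 0.26 in transplanted TAµ and 3.05 ± 0.33 in P10 TAµ, beside 6.58 in transplanted µ and 3.15 in adult control µ. The rise was 6.67 ± 0.42 (limma adjusted p = 1e-08) in the authors' deposited table. Ms4a7, a membrane protein of blood-derived macrophages, had levels of 7.95 ± 0.23 and 1.32 ± 0.46. Its level in adult control µ was -2.90, and both transplanted fractions stood above that control. Apoe, the main lipid carrier of the brain, was higher by 3.89 ± 0.38 and reached a level of 14.11 in transplanted TAµ, in the authors' deposited table. Axl, a receptor for dying cells, was higher by 5.33 ± 0.33, Clec12a, an inhibitory lectin receptor, by 7.82 ± 0.69, and the integrin gene Itga4 by 5.00 ± 0.47 (limma adjusted p = 1.23e-06) in the authors' deposited table. Nfib, which differed by -0.04 ± 0.48, and the Fc receptor gene Fcgr4, which differed by -2.40 ± 1.51, were among the 4 members that did not pass the test in the authors' deposited table. Against adult control µ, where 16.7% of all genes were higher and 13.4% lower, 24 of the 29 genes were higher and 0 lower in transplanted TAµ in the authors' deposited table. In P10 TAµ against the same adult libraries, where 23.2% of all genes were higher and 12.5% lower, 6 were higher and 2 lower according to the authors' deposited table. Both of these comparisons share the adult libraries, so their counts are given side by side and are not independent.

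Macrophages of the brain borders, which sit in the meninges and around vessels, share part of this programme. Of 20 genes typical of them 9 were higher and 0 lower according to the authors' deposited table, with a median of 1.41. Mrc1, the mannose receptor, had a level of 10.68 ± 0.26 in transplanted TAµ and 9.81 ± 0.13 in P10 TAµ, and was higher by 0.88 ± 0.29 (limma adjusted p = 0.0335) in the authors' deposited table. Both TAµ groups were far above transplanted µ at 7.56 and adult control µ at 4.01. The chemokine gene Pf4 was higher by 3.56 ± 0.39, the coagulation factor gene F13a1 by 2.82 ± 0.38 and the scavenger receptor gene Stab1 by 2.11 ± 0.19 in the authors' deposited table. The defining border markers Cd163 and Lyve1 differed by 0.96 ± 0.60 and -0.92 ± 0.72 in the authors' deposited table, with levels of 4.07 and 3.70 in transplanted TAµ, and neither passed the test. The summed level of the list on a log2 scale was 12.04 in transplanted TAµ, 10.66 in P10 TAµ, 9.67 in transplanted µ and 8.57 in adult control µ.

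Monocyte genes formed a shorter set of calls. Of 21 measured 5 were higher and 1 lower according to the authors' deposited table, with a median of 1.75. Ccr2, which draws monocytes to inflamed tissue, was higher by 2.53 ± 0.53 with levels of 3.72 and 1.18, and the antiviral membrane protein gene Ifitm3 by 2.48 ± 0.46 in the authors' deposited table. Vcan, a matrix proteoglycan gene of classical monocytes, fell by 3.87 ± 1.33 in the authors' deposited table. It was the only lower call of the list, which was lost on centring (adjusted p = 0.0568) and at a threshold of 0.01, and a filter at the first quartile of the average left 0 lower genes. The summed level of the monocyte list was 8.64 in transplanted TAµ, 6.14 in P10 TAµ, 7.44 in transplanted µ and 8.73 in adult control µ on a log2 scale. Plac8, a further monocyte marker, differed by -2.14 ± 1.35 without passing the test in the authors' deposited table. Of 12 genes of granulocytes and mast cells 1 was higher, Csf3r, at 0.88 ± 0.21, and 0 lower, and the neutrophil gene S100a8 differed by 1.85 ± 1.88 in the authors' deposited table, with summed levels of the list of 7.72 and 6.71 in transplanted and P10 TAµ. The lymphoid list had 2 measured genes of 20, Cd4, higher at 2.99 ± 0.64, and Cd79b, a signalling chain of the B cell receptor, which fell by 5.17 ± 0.86 in the authors' deposited table. Of 11 dendritic cell genes 4 were lower and 2 higher, with Fscn1, an actin-bundling protein, lower by 2.21 ± 0.30 and Bst2 higher by 2.46 ± 0.31, in the authors' deposited table.

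**Figure D3:**
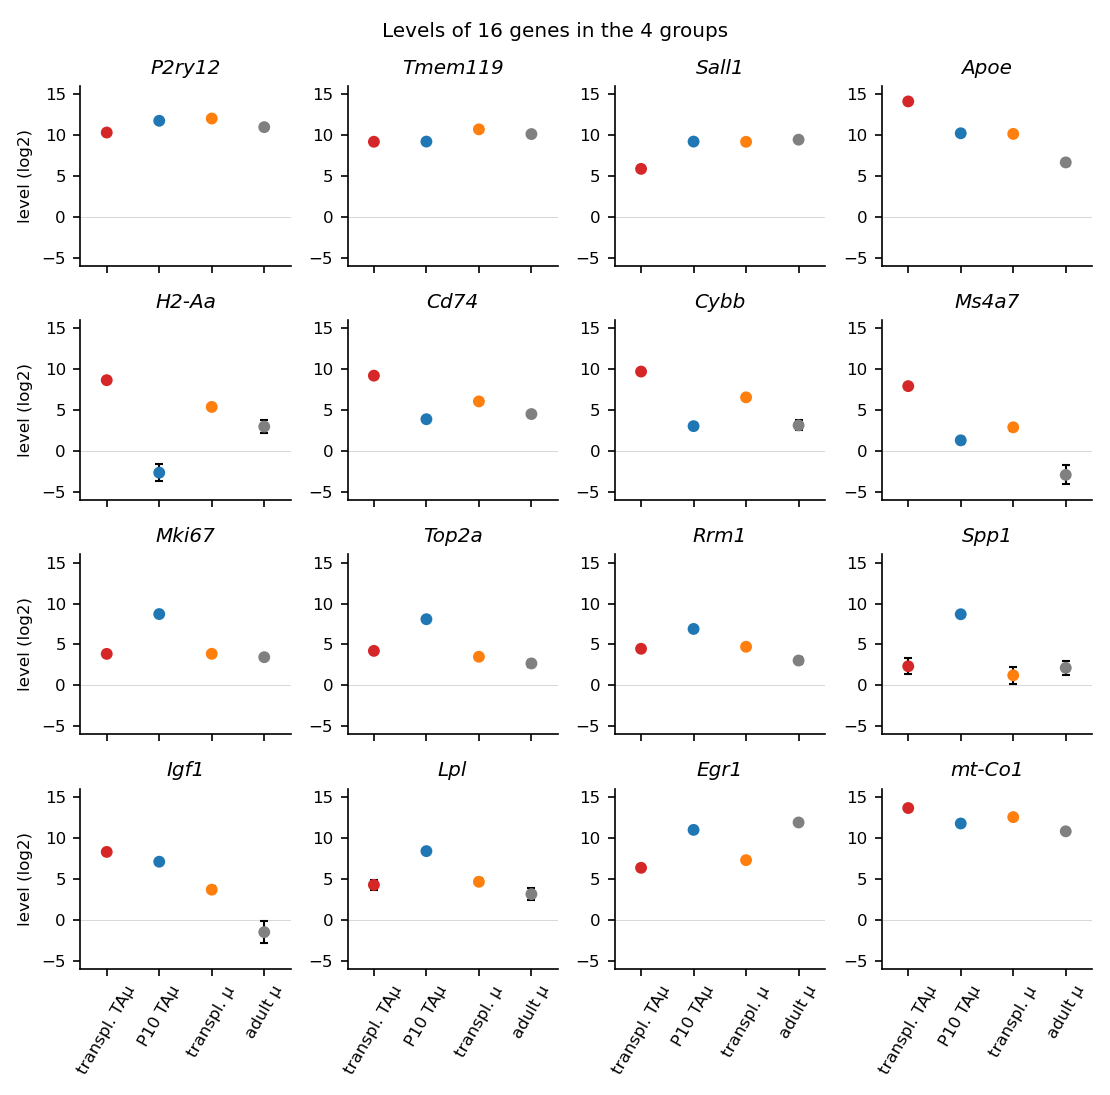
Derived log2 levels of 16 genes in transplanted TAµ, P10 TAµ, transplanted µ and adult control µ, with ± 1 standard error of the group's mean. Most errors are smaller than the point, and for all groups of Mki67 and for P10 TAµ and adult control µ of Sall1 no error could be recovered. H2-Aa spans from -2.64 in P10 TAµ to 8.67 in transplanted TAµ, and Mki67 stands at 8.72 in P10 TAµ and at 3.85 or less in adult control µ and transplanted TAµ.

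MHC class II molecules, pairs of an alpha and a beta chain, present peptides from the endosome to CD4 T cells. In mice most microglia carry little of them at rest. Of 16 measured genes of this pathway 7 were higher and 1 lower according to the authors' deposited table, with a median of 0.82. H2-Aa, the alpha chain of I-A, had a level of 8.67 ± 0.33 in transplanted TAµ, -2.64 ± 1.05 in P10 TAµ, 5.40 in transplanted µ and 3.00 in adult control µ. The beta chain gene H2-Eb1 had 7.09 ± 0.30, -3.89 ± 0.88, 4.29 and -1.19 in the same order. Transplanted TAµ were the highest group and P10 TAµ the lowest for both genes. Both P10 levels were low, in a group where the lowest level of any gene was -5.52. The sizes of these differences, 11.31 ± 1.10 and 10.98 ± 0.93 in the authors' deposited table, are therefore uncertain. Cd74, the invariant chain that escorts class II molecules, did not have this limit, with levels of 9.23 ± 0.24 and 3.90 ± 0.23. H2-DMa, a subunit of the exchange factor that loads peptide, was higher by 3.63 ± 0.29 (limma adjusted p = 2.1e-07), and its partner genes H2-DMb1 and H2-DMb2 by 2.79 ± 0.38 and 4.20 ± 0.71, in the authors' deposited table. Ifi30, a thiol reductase that unfolds antigens in the endosome, fell by 1.80 ± 0.34 in the authors' deposited table. The regulators that bind class II promoters were not called: Rfx5 differed by -0.10 ± 0.55, Rfxap by -0.08 ± 0.50 and Rfxank by -0.02 ± 0.69, and the co-stimulatory ligand gene Cd86 by 0.24 ± 0.27, in the authors' deposited table. Against adult control µ 6 of the 16 were higher and 0 lower in transplanted TAµ, and 1 was higher and 6 lower in P10 TAµ, in the authors' deposited table.

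The promoters of H2-Aa and H2-Eb1 are printed because these were the largest differences of the pathway. Class II promoters are known for a Y box, an inverted CCAAT box bound by the factor NF-Y, next to the boxes bound by the Rfx proteins. The windows, from RefSeq on GRCm38.p6, run from 250 bases before to 50 bases after the annotated start, 5′ to 3′ in the direction of the gene, at chr17:34287774-34288073, minus strand, for H2-Aa and chr17:34305617-34305916, plus strand, for H2-Eb1. Capitals mark CCAAT, searched on both strands, so that ATTGG is a match on the opposite strand.
H2-Aa: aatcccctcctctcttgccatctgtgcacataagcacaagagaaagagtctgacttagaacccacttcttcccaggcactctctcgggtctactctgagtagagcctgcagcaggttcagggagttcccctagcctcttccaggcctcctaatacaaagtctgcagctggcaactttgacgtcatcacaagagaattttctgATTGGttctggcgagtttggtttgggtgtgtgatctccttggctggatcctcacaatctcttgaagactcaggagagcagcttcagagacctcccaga
H2-Eb1: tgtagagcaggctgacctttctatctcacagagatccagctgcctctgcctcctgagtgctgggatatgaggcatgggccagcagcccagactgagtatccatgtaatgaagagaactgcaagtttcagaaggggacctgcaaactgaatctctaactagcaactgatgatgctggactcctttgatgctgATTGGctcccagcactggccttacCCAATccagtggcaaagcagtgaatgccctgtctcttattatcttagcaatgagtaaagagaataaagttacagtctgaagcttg
In H2-Aa the match began 48 bases before the start, and in H2-Eb1 matches began 59 and 35 bases before it. Of the 12 class II pathway genes with a window 8 (66.7%) held CCAAT, against 38.6% of the 9437 table genes with a window. A match is a description of the letters and no evidence of binding.

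MHC class I molecules present peptides from the cytosol and are carried by nearly all cells. Of 24 genes of class I and the immunoproteasome 8 were higher and 0 lower according to the authors' deposited table, with a median of 0.45. The heavy chain gene H2-K1 had levels of 8.72 and 7.33 and was higher by 1.39 ± 0.31, and Psmb9, a catalytic immunoproteasome subunit, gained 1.80 ± 0.34 log2 units in the authors' deposited table. B2m, the light chain, differed by 0.52 ± 0.27 (limma adjusted p = 0.160) in the authors' deposited table, and passed after centring, at 0.85 (adjusted p = 0.0251). Genes of the class I family are close copies of each other, and reads of H2-Q6, higher by 2.57 ± 0.63 in the authors' deposited table, may have been split between copies. Of 38 genes that interferon induces 9 were higher and 0 lower according to the authors' deposited table, with a median of 0.52. Slfn5 was higher by 3.05 ± 0.35 and Bst2, which tethers budding virus to the membrane, by 2.46 ± 0.31, in the authors' deposited table.

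Surface receptors that recognise sugars and microbes differed in both directions. Of 20 C-type lectin and siglec genes 9 were higher and 3 lower according to the authors' deposited table, with a median of 0.85. Klra2, of the Ly49 lectin family, had levels of 4.96 and -3.32, and Cd93, a lectin-like receptor, 6.47 and 0.64, in transplanted and P10 TAµ. Siglech fell by 0.80 ± 0.29 and Mrc2 by 2.16 ± 0.53 in the authors' deposited table, and Siglecg was at the floor of transplanted TAµ. The call of Siglech was lost on centring, at -0.47 (adjusted p = 0.247), and with either filter on the average or without the genes at the floor (adjusted p from 0.0517 to 0.0554). Of 28 genes of Toll-like receptor signalling 4 were higher and 5 lower, with a median of -0.41, in the authors' deposited table, and 7 were higher and 3 lower after centring. Tlr8, an endosomal RNA sensor, was higher by 5.98 ± 0.54, whereas Tlr7, its neighbour in sequence and ligand, fell by 1.14 ± 0.25 and Cd180 by 2.09 ± 0.32, in the authors' deposited table. Tlr4, the receptor for lipopolysaccharide, differed by 0.22 ± 0.25 in the authors' deposited table.

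Of 17 Fc receptor genes and their signalling partners 3 were lower and 1 higher according to the authors' deposited table, with a median of -0.16 that turned to 0.16, with 1 lower and 3 higher, on centring. Fcgrt, the neonatal Fc receptor, fell by 1.94 ± 0.51, and Fcrl1 gained 1.59 ± 0.27 log2 units in the authors' deposited table. Of 18 complement genes 4 were higher and 2 lower, with a median of 0.22, in the authors' deposited table. The complement component gene C4b gained 2.81 ± 0.54 log2 units in the authors' deposited table. C3 differed by 1.39 ± 0.57 (limma adjusted p = 0.0810) by the authors' deposited table, and passed after centring, at 1.72 (adjusted p = 0.0336). Of 8 genes of the phagocyte oxidase complex 3 were higher and 1 lower, with a median of -0.03 that became 0.30 on centring, in the authors' deposited table. Beside Cybb these were the cytosolic subunit gene Ncf4 at 1.39 ± 0.45 and the proton channel gene Hvcn1 at 0.75 ± 0.23, whereas the GTPase gene Rac2 fell by 0.96 ± 0.21, in the authors' deposited table.

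Of 29 chemokine receptor and ligand genes 9 were higher and 5 lower according to the authors' deposited table, with a median of -0.08 that became 0.24 on centring. Cxcr4, the receptor that holds haematopoietic cells in the marrow, had levels of 5.69 and 0.32, and the scavenger and ligand gene Cxcl16 had 7.02 and 2.51. Cx3cr1, the fractalkine receptor of microglia, fell by 0.56 ± 0.20 (limma adjusted p = 0.0491), and the chemokine genes Ccl9 and Ccl6 by 3.56 ± 0.65 and 1.76 ± 0.40, in the authors' deposited table. The call of Cx3cr1 was lost on centring, where the difference was -0.23 (adjusted p = 0.422), and with either filter on the average or without the genes at the floor (adjusted p from 0.0513 to 0.0548). Of 32 cytokine and cytokine receptor genes 7 were higher and 8 lower, with a median of -0.05, in the authors' deposited table, and 11 were higher and 6 lower after centring, where the median was 0.27. Lifr, the receptor for leukaemia inhibitory factor, was higher by 1.64 ± 0.16, whereas its signalling partner Il6st fell by 1.75 ± 0.24, in the authors' deposited table. The receptor chains for type I and type II interferon also parted, with Ifnar1 higher by 1.18 ± 0.18 and Ifngr1 lower by 1.41 ± 0.22 in the authors' deposited table. Of 25 integrin and adhesion genes 6 were higher and 5 lower, with a median of -0.29 that became 0.03 on centring, in the authors' deposited table. Vcam1, a ligand of the integrin that Itga4 encodes, had levels of 8.29 ± 0.29 and 2.15 ± 0.45, and Itgb8, which activates TGF-beta together with the alpha v chain, gained 3.08 ± 0.52 log2 units in the authors' deposited table. Itgb3 fell by 3.44 ± 0.70 and Itgb1 by 0.93 ± 0.25 in the authors' deposited table, and the call of Itgb1 was lost on centring at -0.60 (adjusted p = 0.0852).

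Most genes of cell division were lower in transplanted TAµ. Of 81 genes of mitosis and the spindle 74 were lower and 0 higher according to the authors' deposited table, with a median of -4.44, and 7 of the 81 were at the floor of transplanted TAµ. Mki67, the marker of cycling cells, had a level of 3.85 in transplanted TAµ, 8.72 in P10 TAµ, 3.86 in transplanted µ and 3.44 in adult control µ. P10 TAµ alone were high, and the other 3 groups lay close together. Top2a, which untangles chromosomes, fell by 3.87 ± 0.34 (limma adjusted p = 6.1e-07), Ccnb1, the cyclin of entry into mitosis, by 5.18 ± 1.30, and Hmmr, a spindle protein, by 9.69 ± 1.08 from a level of 5.98 to -3.71, in the authors' deposited table. Of 55 genes of DNA replication and S phase 39 were lower, 0 higher and 16 not called, with a median of -2.88, in the authors' deposited table. The ribonucleotide reductase gene Rrm1 had levels of 4.47 ± 0.32 and 6.90 ± 0.09 and fell by 2.42 ± 0.34, the ligase gene Lig1 by 2.53 ± 0.39 and the replicative helicase gene Mcm2 by 2.88 ± 0.75, in the authors' deposited table. Brca1 stood at 5.11 ± 0.12 in P10 TAµ and at the floor of transplanted TAµ. Against adult control µ 7 of the 81 mitosis genes were higher and 5 lower in transplanted TAµ, and 78 were higher and 0 lower in P10 TAµ, in the authors' deposited table.

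Promoters of these genes are printed since most of them fell together. The cell cycle homology region (CHR), TTTGAA, is bound by the MuvB complexes that hold mitotic genes silent in resting cells and switch them on in dividing ones, and it commonly lies near CCAAT boxes. E2F factors, which act earlier, at the entry into S phase, bind sites that include TTCCCGC. The windows, from RefSeq on GRCm38.p6 as above, lie at chr7:135716330-135716629, minus strand, for Mki67, at chr11:99024140-99024439, minus strand, for Top2a, at chr11:40733388-40733687, minus strand, for Hmmr, at chr13:100786437-100786736, minus strand, for Ccnb1 and at chr7:102441445-102441744, plus strand, for Rrm1. Capitals mark matches of the CHR and of CCAAT on either strand in the first 4 windows, and of the E2F letters in Rrm1.
Mki67: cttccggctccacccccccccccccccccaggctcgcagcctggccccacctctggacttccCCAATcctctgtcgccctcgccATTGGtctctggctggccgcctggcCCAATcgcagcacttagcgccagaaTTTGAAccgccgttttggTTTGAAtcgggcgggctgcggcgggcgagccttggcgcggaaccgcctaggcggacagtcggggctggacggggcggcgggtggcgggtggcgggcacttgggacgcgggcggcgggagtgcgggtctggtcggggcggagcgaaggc
Top2a: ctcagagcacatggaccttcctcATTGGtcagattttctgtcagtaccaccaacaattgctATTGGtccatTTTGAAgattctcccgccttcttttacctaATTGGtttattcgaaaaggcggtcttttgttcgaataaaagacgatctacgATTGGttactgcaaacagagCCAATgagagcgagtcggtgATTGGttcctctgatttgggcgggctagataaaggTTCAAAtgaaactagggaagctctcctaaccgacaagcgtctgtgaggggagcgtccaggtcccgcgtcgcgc
Hmmr: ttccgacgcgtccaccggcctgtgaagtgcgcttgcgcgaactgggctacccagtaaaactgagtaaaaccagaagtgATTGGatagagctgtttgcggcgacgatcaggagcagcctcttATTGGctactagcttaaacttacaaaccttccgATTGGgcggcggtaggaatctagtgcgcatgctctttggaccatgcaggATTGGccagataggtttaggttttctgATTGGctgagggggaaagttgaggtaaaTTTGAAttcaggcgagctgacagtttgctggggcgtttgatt
Ccnb1: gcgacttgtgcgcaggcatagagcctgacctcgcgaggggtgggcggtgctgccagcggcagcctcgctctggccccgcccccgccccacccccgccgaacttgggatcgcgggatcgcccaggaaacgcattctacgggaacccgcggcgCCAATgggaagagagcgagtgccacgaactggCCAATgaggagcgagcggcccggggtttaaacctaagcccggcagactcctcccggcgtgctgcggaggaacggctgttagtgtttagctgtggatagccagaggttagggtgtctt
Rrm1: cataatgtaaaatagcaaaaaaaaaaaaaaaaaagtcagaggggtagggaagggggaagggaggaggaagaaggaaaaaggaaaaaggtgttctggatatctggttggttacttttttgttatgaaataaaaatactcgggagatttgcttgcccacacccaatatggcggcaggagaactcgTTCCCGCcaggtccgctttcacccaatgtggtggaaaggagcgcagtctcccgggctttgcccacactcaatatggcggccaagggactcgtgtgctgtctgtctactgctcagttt
Mki67, Top2a and Hmmr held both motifs, whereas the window of Ccnb1 held CCAAT without TTTGAA. Only the letters TTTGAA were searched for the CHR, here and in the shares below. A window without them may still hold another form of the element. Of 61 mitosis and spindle genes with a window 41 (67.2%) held the CHR, 44 (72.1%) CCAAT and 35 (57.4%) both, against 11.5%, 38.6% and 4.81% of all 9437 windows. Of 45 replication genes with a window 18 (40.0%) held the E2F letters, against 8.49% of all windows, and 7 (15.6%) held the CHR. Over the whole table TTTGAA was in 15.2% of the 1404 windows of lower genes, 10.3% of the 1012 of higher genes and 10.9% of the 7021 of genes not called. A match of one motif may share letters with a match of another, though the marked ones in the printed windows do not, and no test was made.

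**Figure D4:**
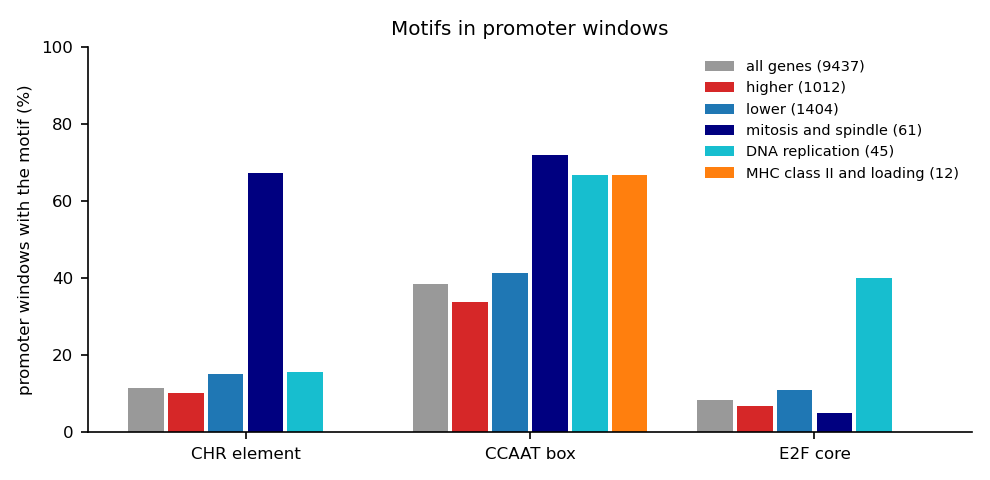
Share of promoter windows of 300 bases that hold a CHR element, a CCAAT box or an E2F core on either strand, in percent, for all genes, genes called higher or lower in transplanted TAµ and 3 gene lists, with the number of windows in brackets. The CHR element is in 67.2% of mitosis and spindle windows and the E2F core in 40.0% of replication windows.

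A further list held genes that govern entry into the cycle. Of 25 genes for G1 cyclins and Cdk inhibitors 9 were lower and 2 higher according to the authors' deposited table, with a median of -0.92, and 7 were lower and 5 higher after centring. Cdk2 fell by 3.88 ± 0.76 and Ccne2, the S phase cyclin, by 3.72 ± 0.97, in the authors' deposited table. The 2 that were higher were Ccnd2, a cyclin of G1, at 1.39 ± 0.47, and the retinoblastoma gene Rb1, which restrains E2F, at 0.61 ± 0.19, in the authors' deposited table. Cdkn1a, which encodes the Cdk inhibitor p21, fell by 1.35 ± 0.49 (limma adjusted p = 0.0486), and Cdkn1c differed by -0.41 ± 0.56, in the authors' deposited table. The call of Cdkn1a was lost on centring, at -1.03 (adjusted p = 0.128), and with either filter on the average or without the genes at the floor (adjusted p from 0.0507 to 0.0542). Of 31 p53 target genes 7 were lower and 2 higher, with a median of -0.78, in the authors' deposited table, and 5 and 4 after centring. Among those lower were Gtse1, at the floor of transplanted TAµ, and Ckap2 at -6.51 ± 1.43 in the authors' deposited table, both known as genes of dividing cells, and Trp53 itself at -1.63 ± 0.31. Sesn1 was higher by 1.23 ± 0.20 and Trp53inp1 by 1.14 ± 0.26 in the authors' deposited table.

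Immediate early genes, which cells induce within minutes of a stimulus, tissue dissociation included, numbered 33, of which 17 fell and 2 rose according to the authors' deposited table, with a median of -2.30. Egr1 had levels of 6.33, 10.97, 7.27 and 11.87 in transplanted TAµ, P10 TAµ, transplanted µ and adult control µ. Both transplanted groups were low, and P10 TAµ and adult control µ were high. Fos fell by 3.12 ± 0.55 and Rhob by 3.06 ± 0.36 in the authors' deposited table, and Dusp2 was at the floor. Nr4a3, an orphan nuclear receptor, was higher by 3.46 ± 0.80 and Fosl2 by 1.36 ± 0.44 in the authors' deposited table. Whether the time from dissection to lysis differed between groups is not given, and its part in the result was not tested. Of 8 RNAs that mark the nuclear or small-RNA fraction of a library 1 was higher, Gas5, at 1.22 ± 0.30, and 0 lower, and Malat1, a nuclear RNA, differed by -1.32 ± 0.48 (limma adjusted p = 0.0523), in the authors' deposited table.

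Genes of early development were read in 2 lists. Of 24 genes of fetal and stem cell programmes 13 were lower and 2 higher according to the authors' deposited table, with a median of -1.38. Lin28b, an RNA-binding protein that marks fetal haematopoiesis and blocks let-7, had levels of -3.52, 2.37, -3.65 and -3.78 in transplanted TAµ, P10 TAµ, transplanted µ and adult control µ, so that it was found above the lowest levels in P10 TAµ alone. Igf2bp3, a fetal RNA-binding protein, fell from 4.93 to -3.70, and the DNA methyltransferase gene Dnmt3a by 1.55 ± 0.20 (limma adjusted p = 3.44e-05), in the authors' deposited table. Hlf, a factor of haematopoietic stem cells and of the circadian output, gained 3.29 ± 0.43 log2 units in the authors' deposited table. Of 20 imprinted growth genes 3 were lower and 2 higher, with a median of -0.34, in the authors' deposited table, and 3 were lower and 7 higher after centring. H19 was at the floor in transplanted TAµ and at 0.70 in P10 TAµ, Sgce fell by 5.95 ± 1.11 and Peg10 by 2.32 ± 0.51, whereas Nnat was higher by 3.71 ± 0.56 and Gnas by 1.68 ± 0.53, in the authors' deposited table. Igf2 differed by 1.12 ± 0.47 (limma adjusted p = 0.0870) in the authors' deposited table, and passed after centring, at 1.45 (adjusted p = 0.0296).

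Genes of amoeboid microglia of the first postnatal weeks, many of which are also induced in disease, parted. Of 30 measured 8 were lower and 6 higher according to the authors' deposited table, with a median of 0.16, and 7 were lower and 11 higher after centring. Spp1, which encodes osteopontin, had a level of 8.70 ± 0.12 in P10 TAµ and of 2.34 ± 0.98, 1.23 and 2.14 in transplanted TAµ, transplanted µ and adult control µ. Lpl, the lipoprotein lipase, had 8.37 ± 0.14 in P10 TAµ and 4.24 ± 0.59 in transplanted TAµ, 4.62 in transplanted µ and 3.11 in adult control µ. Igf1, a growth factor for neurons and oligodendrocytes, went the other way: its level was 8.28 ± 0.28 in transplanted TAµ and 7.08 ± 0.15 in P10 TAµ, beside 3.66 in transplanted µ and -1.53 in adult control µ. Spp1 and Lpl were thus highest in P10 TAµ, while Igf1 was higher in both TAµ groups than in both µ groups. Timp2, an inhibitor of matrix proteases, gained 1.86 ± 0.21 log2 units in the authors' deposited table. Against adult control µ 17 of the 30 were higher and 1 lower in transplanted TAµ, and 24 were higher and 0 lower in P10 TAµ, in the authors' deposited table.

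Of 30 genes of lipid uptake, storage and efflux 7 were higher and 3 lower according to the authors' deposited table, with a median of 0.04. The scavenger receptor genes Msr1 and Cd36, which take up modified lipoproteins, were higher by 3.27 ± 0.34 and 2.36 ± 0.35, whereas the fatty acid binding protein gene Fabp7 fell by 3.06 ± 0.54, in the authors' deposited table. Of 35 genes of cholesterol and fatty acid synthesis 6 were lower and 1 higher, with a median of -0.39, in the authors' deposited table, and 3 and 2 after centring. Cyp51, a sterol demethylase, fell by 2.19 ± 0.55, and the desaturase gene Scd1 gained 3.29 ± 0.41 log2 units in the authors' deposited table.

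Of 45 lysosome genes 9 were higher and 8 lower according to the authors' deposited table, with a median of -0.11, and 14 were higher and 6 lower after centring, with a median of 0.22. The cathepsin genes moved apart: Ctsh was higher by 1.92 ± 0.19 (limma adjusted p = 1.86e-06) and Ctsc by 1.57 ± 0.23, while Ctsl fell by 2.76 ± 0.25 (limma adjusted p = 6.1e-07) and Ctsf by 2.12 ± 0.35, in the authors' deposited table. Ctsl was at 11.13 in P10 TAµ and between 8.36 and 9.0 in the other groups. Galc, the galactocerebrosidase lost in Krabbe disease, was higher by 1.85 ± 0.20, and Lgmn, an asparaginyl protease, fell by 1.37 ± 0.23, in the authors' deposited table. Of 26 genes of iron and haem handling 6 were higher and 1 lower, with a median of 0.30, in the authors' deposited table. Cp, the ferroxidase ceruloplasmin, had levels of 8.24 ± 0.29 and 2.21 ± 0.46, and Fth1, the heavy chain of ferritin, gained 2.41 ± 0.29 log2 units in the authors' deposited table. Steap3, a ferrireductase, fell by 4.61 ± 1.53 in the authors' deposited table.

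All 9 measured genes encoded by the mitochondrial genome were higher, in the authors' deposited table, with a median of 2.01. The complex I subunit gene mt-Nd4 had levels of 12.68, 10.09, 11.49 and 9.71, and the complex IV subunit gene mt-Co1 13.64, 11.75, 12.53 and 10.79, in transplanted TAµ, P10 TAµ, transplanted µ and adult control µ. Both transplanted groups stood above P10 TAµ for these 2 genes. Of 62 nuclear genes of oxidative phosphorylation 5 were higher and 3 lower, with a median of 0.00, in the authors' deposited table, and 12 were higher and 1 lower after centring. Cox8a was higher by 1.30 ± 0.27 and Cox7b fell by 1.32 ± 0.28 in the authors' deposited table. The part of the mitochondrial transcripts in the shift of all genes was not tested. Of 77 cytosolic ribosomal protein genes 3 were higher and 1 lower, with a median of -0.20, in the authors' deposited table, and on centring 8 were higher and 1 lower, with a median of 0.13. Rplp1, of the ribosomal stalk, was higher by 1.63 ± 0.34, and Rpl21 fell by 2.88 ± 0.69, in the authors' deposited table, and these genes have many near-identical pseudogenes between which reads can be split. Of 32 genes of glycolysis and the hypoxia response 5 were higher and 3 lower, with a median of 0.04, in the authors' deposited table, and 10 were higher and 3 lower after centring. Aldoc, the brain aldolase that astrocytes also express, was higher by 3.45 ± 0.46, the hypoxia factor gene Epas1 by 3.31 ± 0.47, and Ldha, which makes lactate, fell by 1.59 ± 0.29, in the authors' deposited table.

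Of 37 genes of the TGF-beta pathway 8 were higher and 6 lower according to the authors' deposited table, with a median of -0.23 that became 0.10 on centring. Nrros, listed under its earlier name Lrrc33, anchors latent TGF-beta on microglia and fell by 2.18 ± 0.41 in the authors' deposited table. The type I receptor gene Acvr1 fell by 2.17 ± 0.42, while Itgav, the alpha v integrin that releases active TGF-beta, gained 0.64 ± 0.15 log2 units in the authors' deposited table. Of 19 NFI and Krüppel-like factor genes 2 were higher and 2 lower, with a median of -0.04 that became 0.29 on centring, in the authors' deposited table. Nfix was higher by 1.11 ± 0.24 and Sp3 by 0.62 ± 0.18, Klf10 fell by 3.86 ± 0.94, Klf15 was at the floor of transplanted TAµ, and Nfia differed by -0.20 ± 0.26, in the authors' deposited table.

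Of 37 extracellular matrix and protease genes 17 were lower and 6 higher according to the authors' deposited table, with a median of -1.46. The basement membrane genes Hspg2, which encodes perlecan and was at the floor of transplanted TAµ, and Nid2, which encodes nidogen-2 and had levels of -1.11 ± 1.83 and 7.07 ± 0.17, were among those lower, beside the protease genes Adamts1 and Adamts16 at -8.50 ± 2.19 and -6.35 ± 1.21 in the authors' deposited table. Mmp14, a membrane-bound collagenase, was higher by 4.03 ± 0.42 and the matrix protein gene Tgfbi by 2.37 ± 0.23 in the authors' deposited table. After centring 12 of the 37 matrix and protease genes were lower and 7 higher. A filter at the first quartile of the average, below which 16 of the 37 lay, left 8 lower and 6 higher. Of 42 axon guidance and growth factor genes 12 were lower and 9 higher, with a median of -0.32, in the authors' deposited table, and after centring 8 were lower and 9 higher, with a median of 0.01. Plxna1, a semaphorin receptor, was higher by 2.88 ± 0.27 and Nrp1 by 1.2 ± 0.27, whereas Plxnb2 fell by 0.88 ± 0.13 and the growth factor binding protein gene Igfbp4 by 4.0 ± 0.47, in the authors' deposited table. Of 32 channel genes 9 were higher and 9 lower, with a median of -0.48, in the authors' deposited table, and 9 and 5 after centring. P2rx4, a channel opened by ATP, was higher by 1.99 ± 0.22 and Trpm2, a calcium channel opened by oxidative stress, by 3.27 ± 0.38, while Cacna1a fell by 2.91 ± 0.56, in the authors' deposited table.

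**Figure D5:**
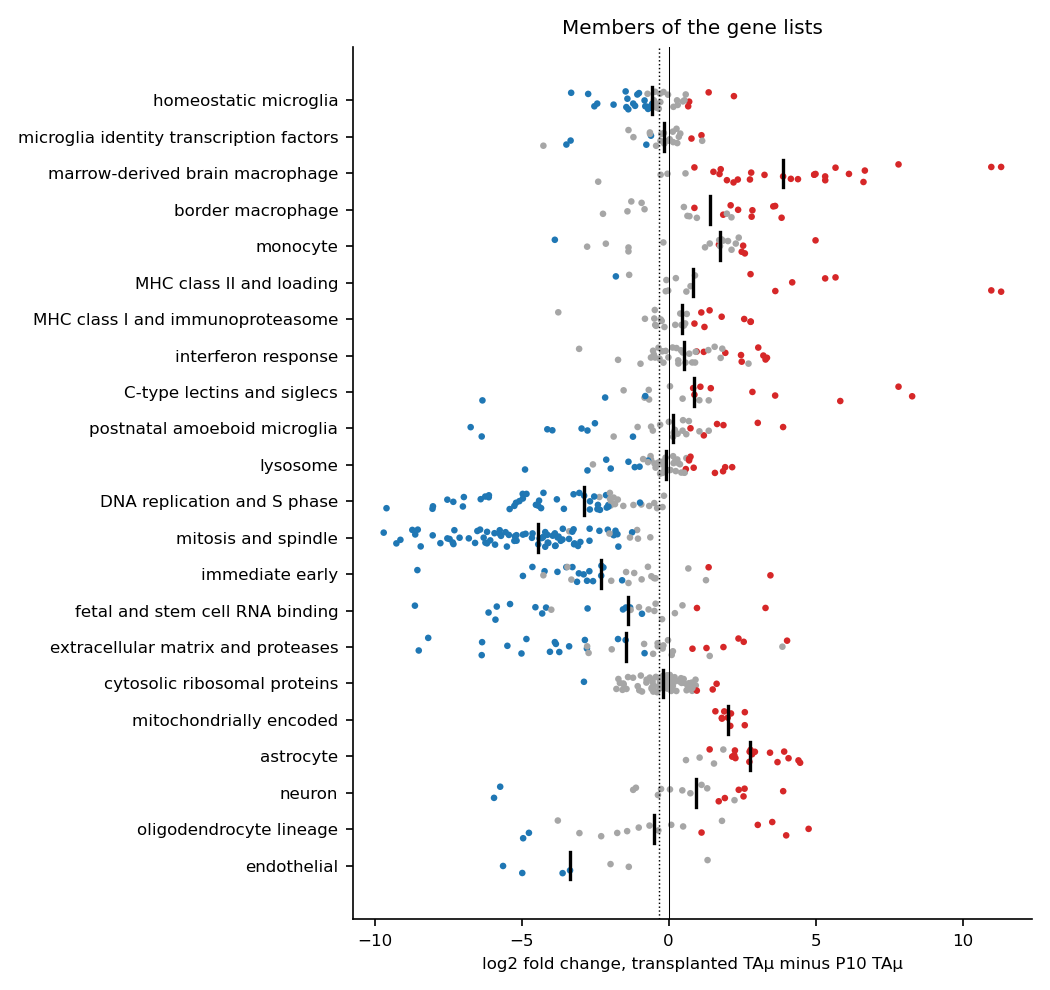
Log2 fold change, transplanted TAµ minus P10 TAµ, of each measured member of 22 gene lists (points: red, higher; blue, lower; grey, not called) with the list's median as a black bar. The solid line is at 0 and the dotted line at the median of all genes, -0.33. Most mitosis and replication genes lie left of 0 and most astrocyte and mitochondrially encoded genes right of it.

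Among the genes of at least median average expression the largest rises, beside Cybb, Vcam1, Cp, H2-Ab1, Axl and Cd74, were Fam107a at 6.45 ± 1.16, Rnf150 at 5.37, Plekhb1 at 5.29 ± 0.62 and Kif5a at 5.16 ± 0.48 in the authors' deposited table. Kif5a, a motor of axonal transport, had levels of 9.65, 4.49, 8.41 and 6.79 in transplanted TAµ, P10 TAµ, transplanted µ and adult control µ. Fam107a, which is known from astrocytes, had 7.39, 0.94, 5.96 and 4.55. The largest falls were Adamts1, Nid2, Myo18b at -7.18 ± 1.55, Tmem44 at -6.74 ± 1.39, Layn at -6.73 ± 1.04, Zfp697 at -6.56 ± 0.97, the helicase gene Mcm5 at -6.39 ± 1.30, Spp1, Adamts16 and Sgce in the authors' deposited table. For Zfp697 the levels were -2.13 ± 0.96, 4.43 ± 0.14, 4.61 ± 0.26 and 4.74 ± 0.24, so that only transplanted TAµ were low, with an error several times that of the other groups.

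Markers of other brain cells differed between both TAµ groups, in different directions by cell type. Of 20 astrocyte genes 16 were higher and 0 lower in transplanted TAµ in the authors' deposited table, with a median of 2.75, and their summed level on a log2 scale was 12.86 in transplanted TAµ, 10.65 in P10 TAµ, 12.10 in transplanted µ and 10.72 in adult control µ. Slc1a2, the glutamate transporter of astrocytes, was higher by 3.93 ± 0.46, S100b by 4.47 ± 0.57 and the intermediate filament gene Gfap by 2.25 ± 0.40, in the authors' deposited table. Of 18 neuron genes 6 were higher and 2 lower, with a median of 0.93, in the authors' deposited table, and their summed derived levels were 9.34 and 7.64 in transplanted and P10 TAµ. Snap25, a protein of the synaptic vesicle machinery, was higher by 3.90 ± 0.41, whereas Dcx, of migrating young neurons, fell by 5.94 ± 1.27, in the authors' deposited table. The neuronal markers Syt1 and Rbfox3 had levels of 1.78 and 0.84 in transplanted TAµ. Of 18 genes of the oligodendrocyte lineage 5 were higher and 2 lower, with a median of -0.50, in the authors' deposited table. Their summed derived levels were 10.92 and 7.89 in transplanted and P10 TAµ, with Mbp alone at 10.19 and 6.19. The myelin genes Mbp and Mobp were higher by 4.0 ± 0.53 and 4.76 ± 0.70, whereas the precursor genes Cspg4, at the floor, and Enpp6, at -4.75 ± 1.40, were lower, in the authors' deposited table. Mog, a defining myelin gene, had levels of -2.44 and -0.14.

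Of 6 choroid plexus and ependyma genes 5 were higher and 0 lower according to the authors' deposited table, with a median of 3.12, and Ttr, the thyroxine carrier, had levels of 9.38, 6.57, 7.33 and 6.0 in transplanted TAµ, P10 TAµ, transplanted µ and adult control µ. Of 7 endothelial genes 4 were lower and 0 higher, with a median of -3.35, in the authors' deposited table, and their summed derived levels were 2.88 and 5.08 in transplanted and P10 TAµ. Pecam1 fell by 3.61 ± 0.91 and Vwf and Ramp2 were at the floor of transplanted TAµ, in the authors' deposited table. Of 8 mural cell and fibroblast genes 4 were lower and 1 higher, with a median of -3.11, in the authors' deposited table, Pdgfrb at -5.76 ± 0.87 among the former, and the channel subunit gene Abcc9, at 3.73 ± 0.41, was the latter. Their summed derived level was 5.14 in transplanted and 4.27 in P10 TAµ, so the sum was higher in transplanted TAµ although the median fold change was negative. Of the 8 mural cell and fibroblast genes 7, and of the 7 endothelial genes 6, were below the first quartile of the average. A filter there left 0 lower mural cell and fibroblast genes and 1 lower endothelial gene. Of the 6 choroid plexus and ependyma genes 4 were below that quartile, and the filter left 2 higher. Of 4 erythroid genes the globin genes Hba-a1 and Hba-a2 were higher by 2.95 ± 0.67 and 3.46 ± 0.73 and the erythropoietin receptor gene Epor fell by 7.21 ± 1.39, in the authors' deposited table, and the 2 globin genes are near-identical copies. The summed erythroid level was 2.86 in transplanted and 3.60 in P10 TAµ. All 4 erythroid genes were below the first quartile of the average, so the filter left none of them. Of 5 sex-linked genes 0 were called, and Xist had a standard error of 5.29, far above the median of 0.57 over all genes, in the authors' deposited table. The part of RNA from these other cells in the differences of the gene lists was not tested, and fewer cells of a type cannot be told apart from less RNA per cell. Some genes are members of more than one list, among them Mrc1, Itga4, Siglech, Bst2, Clu and Aldoc. H2-Aa and Cd74 are in both the marrow-derived macrophage and the class II list. Cybb is in the marrow-derived macrophage and oxidase lists, and Apoe in the marrow-derived macrophage, amoeboid and lipid uptake lists. The counts of these lists are therefore not independent of each other.

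The transplanted TAµ comparison was set against the comparison of transplanted µ with adult control µ, with which it shares no library. The titles give the transplanted libraries of both fractions matching letters, and what a shared letter stands for is not stated. The errors of both comparisons were added as independent. The difference of both fold changes, TAµ minus µ, was tested on 13733 genes from the recovered standard errors with Benjamini-Hochberg adjustment. It passed for 1804 genes (13.1%), 510 (3.71%) with a positive and 1294 (9.42%) with a negative difference. After centring on the median difference of -0.50 the balance turned round, with 991 positive and 608 negative. As P10 TAµ and adult control µ differ in age and in population, the test says where the contrasts differ and not which of their 4 groups makes the difference. Of the homeostatic microglia genes 17 of 39 had a negative difference and 1 a positive one, and 11 and 1 after centring. P2ry12 differed between the contrasts by -2.50 ± 0.38, Sall1 by -3.08 ± 0.40 and Gas6 by -3.04 ± 0.28, and Pmepa1 by 1.53 ± 0.31. Of the marrow-derived macrophage genes 14 of 29 had a positive difference and 2 a negative one, with Cd74 at 3.78 ± 0.57 and Axl at 2.55 ± 0.70. Ms4a7 and Apoe, at 0.81 ± 1.35 and 0.41 ± 0.64, and the astrocyte gene Slc1a2, at 1.48 ± 0.70, did not pass the test. Of the class II genes 7 of 16 were positive, H2-Aa at 8.91 ± 1.42 among them, and 1 was negative. Of the 81 mitosis genes 36 and of the 55 replication genes 25 had a negative difference and 0 a positive one, and after centring 30 and 17 were negative. Of the astrocyte genes 0 of 20 and of the mitochondrially encoded genes 0 of 9 passed in either direction. After centring 1 astrocyte gene was positive and 0 negative, and the mitochondrially encoded genes remained at 0. Immediate early genes were positive in 5 of 33 cases and negative in 1, or in 8 and 0 after centring, and Egr1 differed between the contrasts by -0.03 ± 0.52.

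Genes that were called in the same direction sometimes lay side by side. Of 12360 genes placed on GRCm38.p6 by RefSeq, 5 runs of at least 4 neighbouring measured genes were all higher and 11 all lower, and these runs were chosen after their values were seen. On chromosome 19 AW112010, Ms4a7, Ms4a4c, Ms4a6c and Ms4a6b formed a run of 483 kb, with Ms4a6c, of the same family of membrane proteins as Ms4a7, higher by 4.95 ± 0.35 in the authors' deposited table. On chromosome 17 H2-DMa, H2-DMb2, H2-DMb1 and Psmb9 formed a run of 67.6 kb. On chromosome 1 the run began with Ifi204, Mndal and Ifi203, interferon-inducible DNA sensors that were higher by 3.38 ± 0.43, 6.01 ± 0.61 and 7.07 ± 0.81 in the authors' deposited table. These genes are close copies, so their reads may have been split. A run of lower genes on chromosome 3 was Med12l, P2ry13, P2ry12 and Igsf10. The receptor genes lie inside the span of Med12l, and without a statement on strand their reads cannot be told apart from those of Med12l in shared stretches.

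Length and base composition of transcripts were set beside the calls, with 12828 genes (93.2%) matched to GENCODE M21. Of the fifth with the longest transcripts 14.7% were higher and 15.9% lower, and of the fifth with the shortest 8.80% and 13.5%, in the authors' deposited table. Of the fifth with the lowest GC content 13.2% were higher and 14.4% lower, and of the fifth with the highest 9.28% and 14.1%, in the authors' deposited table. The share of lower genes thus varied little with either property, and the share of higher genes was greatest for long and for GC-poor transcripts.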

How the data were processed

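RNA of sorted brain myeloid cells (100 ng per sample) was extracted with the RNeasy Plus Micro kit, amplified by the Ovation V2 kit, turned into libraries by the Ovation Ultralow system and sequenced single-end for 50 cycles, per the labels' protocols. Reads were processed with STAR 2.3.0, HTSeq 0.5.3 and limma on mm10, per the submitters' processing notes. The normalization, the filter on low counts and the strand setting were not given in the sources used here. The authors deposited log2 normalized expression averaged over the libraries, log2 fold changes between the 4 groups, p-values and adjusted p-values, and, as scores, an F statistic and a call of 1, 0 or -1 for each pair of groups. The authors' deposited calls equalled an adjusted p under 0.05. Amplification from small RNA amounts can raise the spread of weakly expressed genes, and the number of reads per library was not analysed here.

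The error of a fold change was worked back from its limma p, taking 18 degrees of freedom for every gene, and 6 genes have none. Levels per group were derived from the average, the fold changes and the numbers of libraries. The difference of both transplant comparisons was tested with these errors under the same residual variance, with Benjamini-Hochberg adjustment. Python 3.11.15 with numpy 2.4.6, pandas 2.3.3, scipy 1.17.1 and matplotlib 3.10.9 was used, and the recovery was tested on simulated data with limma 3.58.1. The comparison, the gene lists and the tests were chosen with earlier results of these data known. Named genes are chosen anchors, up to 3 members per list and direction with the smallest adjusted p, and the 10 largest rises and 10 largest falls over the median average, predicted genes left out. Cell type markers were listed apart from this rule. C1qb, Cd86, H2-DMb1, H2-DMb2, Rfx5, Rfxank, Rfxap and the members of the neighbouring runs were named after their values were seen. Alternatives were a threshold of 0.01, Bonferroni adjustment, a fold change minimum, filters on the average, centring on the median and leaving out genes at the floor. Some genes that this rule selects are not reported here, though the counts include them.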

Additional observations from a re-analysis of the deposited data

Results flagged for a closer look

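For 18 of the chosen anchor genes the difference between transplanted and P10 TAµ differed from that between transplanted and adult control µ, by the test of the difference itself with Benjamini-Hochberg adjustment. The values below are the first log2 fold change minus the second. Among genes of antigen presentation and marrow-derived macrophages H2-Aa, at 8.91, Clec12a, at 5.37, H2-Ab1, at 4.45, Cd74, at 3.78, and Cybb, at 3.25, had positive values. Of the 29 marrow-derived macrophage genes 14 were positive and 2 negative, with Nfib, given below, among the negative ones. The anchors Itga4 at 1.90, Ms4a7 at 0.81, Apoe at 0.41 and Fcgr4 at -1.41 of that list did not pass the test. Malat1 was at 2.45.

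Negative values were found for the microglia genes Sall1 at -3.08, P2ry12 at -2.50 and Cx3cr1 at -1.02, and for Mrc1 at -2.68. Genes of the cell cycle were negative too, with Mki67 at -5.28, Top2a at -4.69, Ccnd2 at -6.68 and Cdkn1a at -5.19. Spp1 was at -5.45, Lpl at -5.64, Nfib at -5.34 and Lin28b at -6.03. Ccnd2 and Mrc1 were higher in transplanted TAµ than in P10 TAµ, so their negative values come with larger differences between transplanted and adult control µ. For Mrc1 the levels were 10.68 and 9.81 in transplanted and P10 TAµ, and 7.56 and 4.01 in transplanted and adult control µ. Nfib and Malat1 were not called between transplanted and P10 TAµ. With the difference centred on its median over all genes Cx3cr1, at -0.52 (adjusted p = 0.260), Lin28b (adjusted p = 0.0534) and Spp1 (adjusted p = 0.0579) no longer passed. The 4 groups differ in age and population, which cannot be told apart, and the test of the difference does not say which group makes it.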

How the results depend on the processing

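The counts of 1441 higher and 2100 lower genes became 887 and 961 at an adjusted p of 0.01 and 226 and 99 with Bonferroni adjustment. With a filter at the median average they were 794 and 876, and above the first quartile the lower count was 1258. With fold changes centred on the median of all genes 2181 were higher, and 1434 were lower. The 510 positive and 1294 negative differences between the transplant comparisons became 163 and 379 at 0.01, and 991 and 608 after centring on their median of -0.50. Without the genes at the floor, an alternative chosen after seeing the data, 1403 genes were higher and 1489 lower. Genes that turned sign on centring, none of them called either way, were Irf8 (0.16), Mef2c (0.076), Nfia (0.12), Nfib (0.29), Sfpi1 (0.33) and Tmem119 (0.30). The cause of these changes was not tested, apart from fewer genes entering under the filters. Of 240 named genes 221 were called, of which 34 lost the call at 0.01, 138 with Bonferroni adjustment and 11 on centring, while 4 of the others gained one on centring.

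No value of a single library was at hand, so leaving out libraries was not run. No paired analysis was possible because the table holds no columns of single libraries. The 3 transplanted libraries limit what can be seen, with a median standard error of 0.57, and sizes of differences of genes near the floor are uncertain.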
